A study of Drosophila melanogaster with 2 samples.

Results

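The genes described here encode the eukaryotic translation initiation factors (eIF) and elongation factors (eEF) of *Drosophila melanogaster*. They were chosen by name: every protein-coding gene whose symbol begins with eIF or eEF in the Ensembl BDGP6 annotation, which gave 52 of 13945 protein-coding genes. For each gene the chromatin immunoprecipitation sequencing (ChIP-seq) peaks of GFP-tagged Repo were collected from 2 kb upstream of the gene to its end. The samples form 1 group of 2 biological replicates, numbered 1 and 3: whole embryos of the repo-GFP strain, sexes mixed, aged 0 to 24 hours, with chromatin sonicated to 200 to 800 bp and precipitated, per the sample descriptions, with an antibody to GFP. Another field of the labels names repo as the antibody, and with such an antibody untagged Repo would be recovered too. Both replicates carry the same transgene, in which GFP is joined to the C-terminus of Repo, so they hold no untagged or untreated embryos to compare with. Whole embryos hold glia, where Repo is normally made, among many other cell types, and a peak cannot be placed in any of them.

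Repo belongs to the homeodomain family and drives the development of most glial cells of the fly embryo. Initiation factors bring the initiator tRNA and the small ribosomal subunit to the mRNA cap and to the start codon, and elongation factors then deliver each aminoacyl-tRNA and move the ribosome along the mRNA. Every growing cell uses them, together with the ribosomal proteins. In *Drosophila*, genes of the translation machinery often start at the TCT, or polypyrimidine, initiator, a core promoter element distinct from the usual initiator. Many housekeeping promoters also hold the sites of Dref, a factor first known from DNA replication genes, or of M1BP, a zinc finger protein that binds at promoters.

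The peaks are those of the authors' lists on the build dm6. The pooled list, made from both replicates together, holds 30000 peaks and background regions, and the optimal list, kept by the authors after an irreproducible discovery rate (IDR) step, holds its 2697 strongest. A peak that is in the pooled list and not in the optimal one is called weaker here. The signal value of a peak is the authors' own, on a scale that is not stated, so peaks were compared by signal or rank within 1 list, with rank 1 the strongest, and replicates by rank. The lists give no read counts, so the sequencing depth is unknown. With 1 group and members chosen by name with earlier results of these data known, no test was made, and the counts below are descriptions set beside the same counts over all protein-coding genes.

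Promoters of several of these genes hold the Dref word TATCGATA close to the transcription start site (TSS), and these are printed so that promoters with and without a strong Repo-GFP peak can be read side by side. Each runs from 60 bases before the outermost annotated start through the first 10 transcribed bases, read on the gene's own strand from the dm6 reference. Capitals mark the Dref word and, where present, a TCT initiator word. The first set has an optimal peak at its own start.
eEF1gamma, chr3R:29220112-29220181, plus strand: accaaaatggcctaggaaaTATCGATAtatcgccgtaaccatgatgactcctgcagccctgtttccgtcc
eIF3a, chr3R:4433886-4433955, minus strand: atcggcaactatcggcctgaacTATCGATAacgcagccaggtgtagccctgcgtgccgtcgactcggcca
eIF4A, chr2L:5981704-5981773, plus strand: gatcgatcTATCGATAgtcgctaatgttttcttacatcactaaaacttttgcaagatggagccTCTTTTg

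The word is centred 37, 34 and 48 bp upstream of the start in these 3. Of the other genes with an optimal peak at the own start, eIF6 has it 7 bp and eIF3c 216 bp upstream, and their sequences are not printed.

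The second set has the Dref word centred 25, 4, 5, 54 and 15 bp upstream and no optimal peak. The positions of the word in genes with and without an optimal peak at the own start therefore overlap. The last of the 5 printed here, eIF4B, had no pooled peak at all between 2 kb upstream and its end.
eEF1delta, chr2L:10232447-10232516, plus strand: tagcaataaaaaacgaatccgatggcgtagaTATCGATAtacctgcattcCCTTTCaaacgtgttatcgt
eIF3f1, chr3R:4714173-4714242, minus strand: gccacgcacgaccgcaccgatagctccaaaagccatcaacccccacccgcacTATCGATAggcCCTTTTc
eIF2gamma, chr3R:15263449-15263518, minus strand: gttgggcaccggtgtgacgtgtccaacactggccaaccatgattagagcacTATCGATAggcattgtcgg
eIF4E6, chr3R:29027165-29027234, minus strand: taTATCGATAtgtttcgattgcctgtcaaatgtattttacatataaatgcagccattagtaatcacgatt
eIF4B, chr3L:27858262-27858331, minus strand: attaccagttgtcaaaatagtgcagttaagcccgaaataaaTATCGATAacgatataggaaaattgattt

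Of the 52 translation factor genes, 17 (32.7%) had an optimal summit between 2 kb upstream and the gene's end, beside 19.7% of all protein-coding genes. A summit in that interval can belong to a neighbour, so the narrower count of genes with an optimal summit within 500 bp of an own TSS is given too: it was 14 (26.9%), beside 13.6% of all protein-coding genes. Some pooled summit, optimal or weaker, was found for 42 (80.8%), beside 73.4% of all protein-coding genes. The 3 shares therefore lay above those of all genes, by the least for the pooled list. The median length was 1955 bp for the translation factor genes and 2166 bp for all genes. Whether gene length bears on the shares was not tested. The cytoplasmic ribosomal protein genes, which work beside them, had higher shares: 55 of 87 (63.2%) had an optimal summit in the interval and 54 (62.1%) had it within 500 bp of an own TSS. Of the other 35 translation factor genes, 25 had weaker peaks only and 10 had none.

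Where an optimal peak was present, it was often among the stronger peaks of the list. The strongest optimal peak per gene had a median signal of 172 over the 17 translation factor genes, 168 over the 55 ribosomal protein genes and 134 over all 2751 genes with an optimal summit. The medians of the ranks were 713, 744 and 1155 in the same order. The range among the translation factor genes was wide, with signals of 86.5 to 1703.

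**Figure D1:**
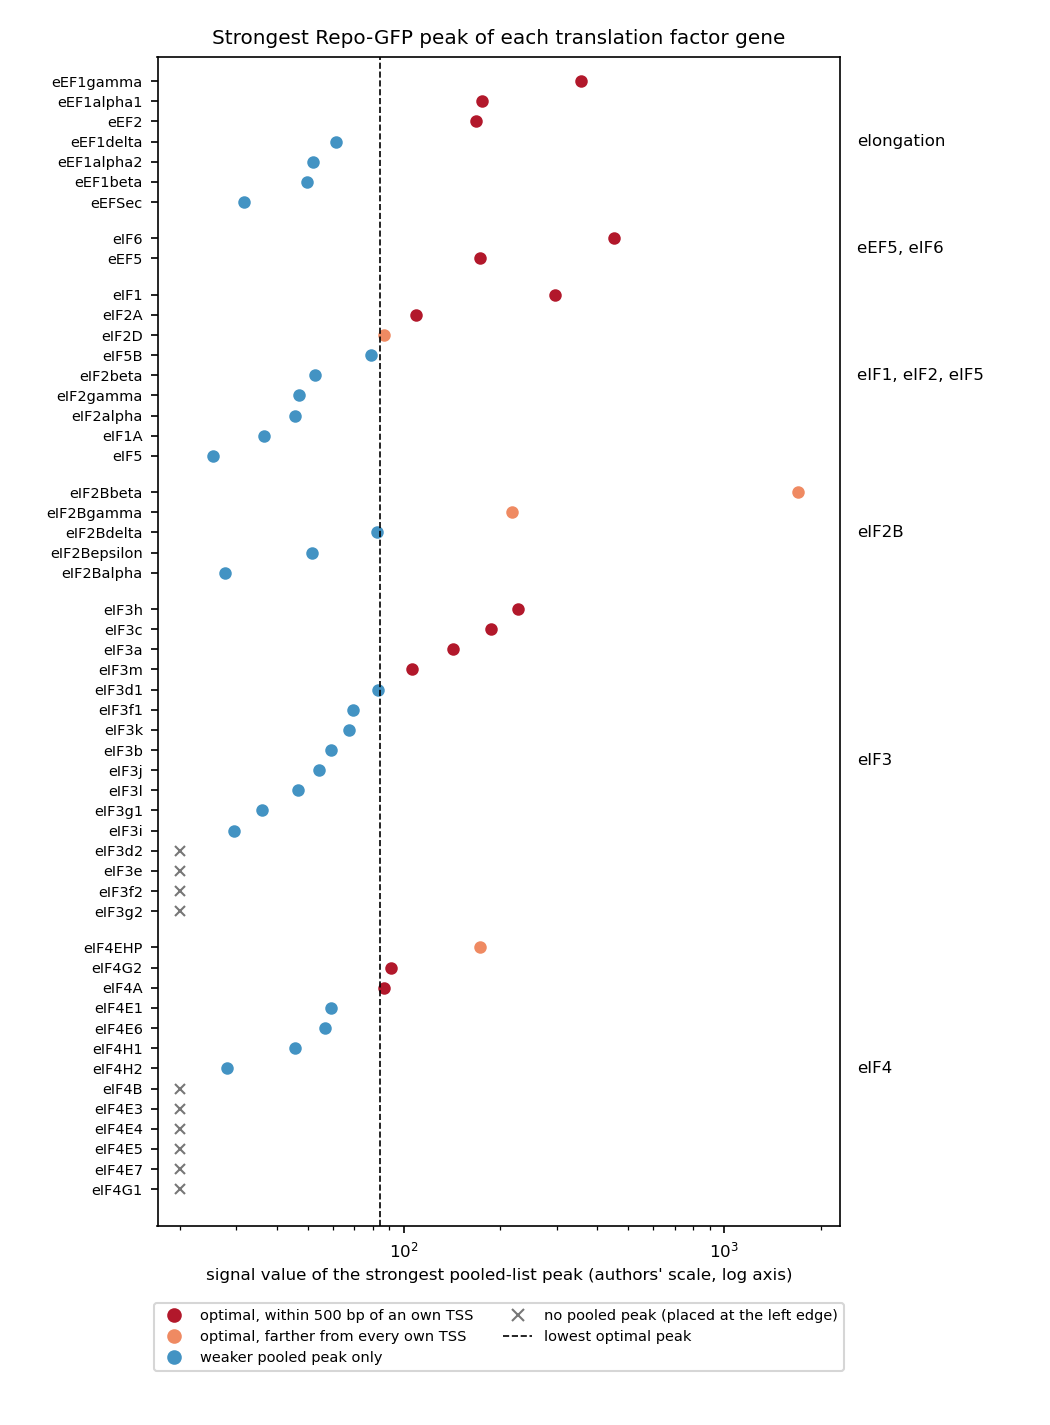
Signal value of the strongest pooled-list peak (horizontal log axis, authors' scale) of each of the 52 translation factor genes, grouped by role. Dark red points are optimal peaks within 500 bp of an own TSS, orange points optimal peaks farther away, blue points weaker peaks, and crosses at the left edge genes with no pooled peak; the dashed line is the lowest optimal signal, 84.0. The eIF2B group holds the strongest peak of all, and the eIF3 and eIF4 groups hold the 10 genes with none.

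Among the elongation factor genes, 3 of 7 had an optimal peak, beside 19.7% of all protein-coding genes. Each of the 3 had a summit at its own start, and the other 4 had weaker peaks. The strongest was at eEF1gamma, a subunit of the complex that recharges eEF1A with GTP, where a peak at chr3R:29220047-29220273 had a signal of 357 and rank 128. Its summit lay 8 bp upstream of the TSS, and it ranked 139 in replicate 1 and 128 in replicate 3. The summits of the replicates there were 11 bp apart. At eEF1alpha1, which encodes the GTPase that delivers aminoacyl-tRNA to the ribosome, the promoter peak had a signal of 175 and a summit 28 bp upstream of a TSS. The replicates were less alike there, with rank 1403 in replicate 1 and 393 in replicate 3. A pair of further optimal peaks, with signals of 152 and 136, lay 1229 and 1470 bp upstream of eEF1alpha1 in an intron of ERp60, a neighbouring gene on the other strand. The farther of them had rank 1346 in replicate 1 and no matching peak in replicate 3. At eEF2, the translocase that moves the ribosome by a codon, the peak had a signal of 168 and a summit 9 bp downstream of a TSS, with ranks of 1133 in replicate 1 and 417 in replicate 3.

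The elongation genes without an optimal peak were eEF1delta (signal of the strongest weaker peak 61.2), eEF1alpha2 (51.9), eEF1beta (49.9) and eEFSec (31.7). eEF1alpha2 is a second gene for the eEF1A GTPase. Its strongest peak lay 1773 bp upstream of its start, against 28 bp for eEF1alpha1, and was 268 bp from the TSS of CstF50. Peaks of nearly equal signal (50.8) and of lower signal (26.2) lay 1442 and 171 bp downstream of an own TSS of eEF1alpha2. eEF1beta and eEF1delta work in the same exchange complex as eEF1gamma, and their peaks had summits 142 bp downstream of the TSS at eEF1beta and 1593 bp into the gene at eEF1delta. The peak of eEF1delta was matched in replicate 1 alone, at rank 1997. eEFSec, the factor for selenocysteine, had only an intronic peak of another gene, 911 bp upstream of its own start.

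eIF6 and eEF5, a pair of genes for factors with special tasks, each had an optimal peak at the own promoter, beside 13.6% of all protein-coding genes. With so few genes, this describes each gene and is not a trait of a group. eIF6 encodes a factor that keeps the large ribosomal subunit from joining too early, and its peak at chr2R:23850290-23850539 had a signal of 454 and rank 81, the strongest of any translation factor gene at its own start. The summit lay 119 bp upstream, and the ranks were 78 in replicate 1 and 86 in replicate 3. eEF5, formerly called eIF5A, encodes a factor that helps the ribosome through stretches such as runs of proline. Its peak had a signal of 172, a summit 13 bp upstream of a TSS, and ranks of 462 in replicate 1 and 849 in replicate 3.

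Among the 9 genes for start site selection and the GTP cycle of initiation, 3 had an optimal peak, beside 19.7% of all protein-coding genes. eIF1, whose product guards the choice of start codon, had a peak at chr3L:3222896-3223102 with a signal of 296 and rank 206. The summit lay 348 bp upstream of eIF1 but 33 bp upstream of the TSS of RpL28, a ribosomal protein gene that runs the other way. The replicates placed it within 2 bp of each other, at rank 368 in replicate 1 and 168 in replicate 3. So the eIF1 peak counts for the gene by distance, while the nearest start belongs to a ribosomal protein gene. eIF2A, a factor that can bind initiator tRNA in mammals, had a peak with a signal of 109 and a summit 54 bp upstream of a TSS, at ranks 1529 and 2026 in replicates 1 and 3. At eIF2D, which encodes a factor of non-canonical initiation and ribosome recycling in mammals, the peak had a signal of 86.8 and lay 1524 bp upstream, 52 bp from the TSS of Slbp, the gene of the histone mRNA stem-loop binding protein. It ranked 1119 in replicate 1 and 4971 in replicate 3, outside the 2697 highest of replicate 3. A weaker peak with a signal of 72.6 lay at its own start, 155 bp upstream of eIF2D.

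The genes of the eIF2 trimer, which carries the initiator tRNA, had weaker peaks only. The strongest signals were 52.8 at eIF2beta, 47.0 at eIF2gamma and 45.7 at eIF2alpha, with summits 279, 252 and 48 bp downstream of a TSS. That of eIF2gamma, a gene that shares its start with Su(var)3-9, was matched in replicate 1 at rank 3798 and not in replicate 3. The peak with a signal of 45.7 is also counted for eIF4H1, which runs the other way, because it falls in both intervals; the start of CG34015 lies between these genes. Beside the trimer, eIF5B, the GTPase that joins the subunits, had its strongest peak (78.9) 21795 bp into the gene. eIF1A had a strongest signal of 36.7 and eIF5, which makes eIF2 hydrolyse its GTP, one of 25.3.

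The eIF2B group encodes the exchange factor of eIF2. Of its 5 genes, 2 had an optimal peak, beside 19.7% of all protein-coding genes. Within 500 bp of an own TSS, 0 had it, beside 13.6% of all. The interval of eIF2Bbeta holds the strongest peak of the whole optimal list, at chrX:2703693-2704077, with a signal of 1703. It ranked 2 in replicate 1 and 1 in replicate 3. The summit lay 686 bp upstream of eIF2Bbeta and 33 bp upstream of Ugalt, a sugar transporter gene on the other strand. At its own start, 10 bp downstream of the TSS, eIF2Bbeta had a weaker peak with a signal of 36.6, matched in replicate 1 and not in replicate 3. At eIF2Bgamma the peak had a signal of 217 and lay 1277 bp upstream, 21 bp from the TSS of CG8187, at ranks 341 and 543 in replicates 1 and 3. In both cases the replicates placed the summit within 5 bp of each other, at the start of the neighbour and not of the eIF2B gene. The other subunit genes had weaker signals of 82.2 (eIF2Bdelta), 51.5 (eIF2Bepsilon) and 27.6 (eIF2Balpha).

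**Figure D2:**
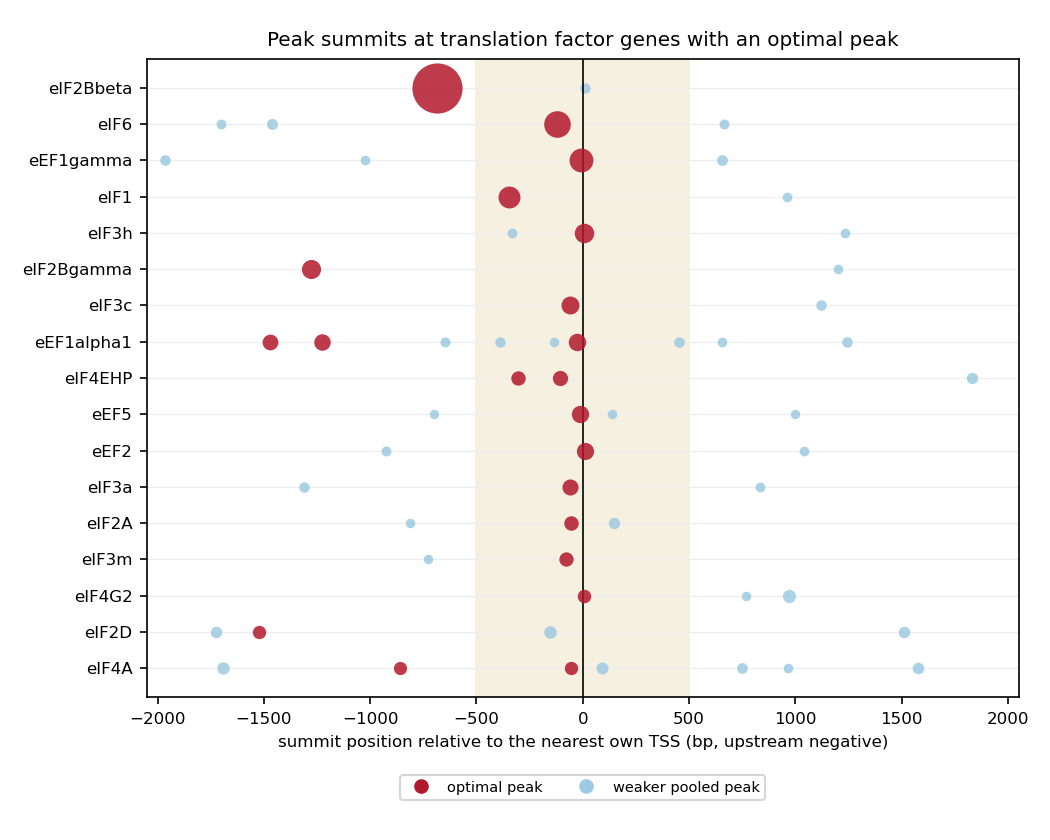
Summits of pooled-list peaks within 2000 bp of the nearest own TSS (horizontal axis, bp, upstream negative) at the 17 translation factor genes with an optimal peak, ordered by signal. Red points are optimal and light blue points weaker peaks, point area grows with signal, and the shaded band marks 500 bp either side of the TSS. Most optimal summits sit close to 0, while those of eIF2Bbeta, eIF2Bgamma and eIF2D, a pair at eEF1alpha1 and the second of eIF4A lie 686 to 1524 bp upstream; the intron peak of eIF4EHP, 9770 bp downstream, is beyond the axis.

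eIF3 is the largest initiation factor, a scaffold on the small subunit. Of its 16 genes, 4 had an optimal peak, beside 19.7% of all protein-coding genes, and each lay within 100 bp of an own TSS. At eIF3h, a peak at chr2L:5052722-5052903 had a signal of 227, a summit 5 bp downstream of a TSS, and ranks of 382 in replicate 1 and 470 in replicate 3. At eIF3c the signal was 187 and the summit 60 bp upstream, at rank 938 in replicate 1 and 518 in replicate 3. At eIF3a, which encodes a core subunit, the signal was 143, and the summit lay 61 bp upstream of eIF3a and 9 bp from the start of CG1074, which runs the other way, at ranks 1277 and 845. At eIF3m the signal was 106 and the summit 77 bp upstream, at ranks 1281 and 2118. Each of the 4 summits thus lay near an eIF3 start, and 3 of these genes have a divergent neighbour, with its start 70 bp away at eIF3a, 63 bp at eIF3h and 226 bp at eIF3m.

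A further 8 eIF3 genes had weaker peaks only, and eIF3d1, eIF3f1 and eIF3k came closest to the optimal list. eIF3d1, whose product can bind the cap in mammals, had a signal of 82.8 just under the lowest optimal signal of 84.0, with the summit 26 bp upstream of its TSS. It ranked 5797 in replicate 1 and 2471 in replicate 3. At eIF3f1 the signal was 69.1, 175 bp downstream of the TSS, and at eIF3k it was 67.5, 42 bp upstream. The remaining weaker signals ran down to 29.4 at eIF3i. The 4 eIF3 genes with no pooled peak were eIF3e, eIF3d2, eIF3f2 and eIF3g2. The last 3 of these are second copies of subunit genes, and their first copies eIF3d1, eIF3f1 and eIF3g1 each had a weaker peak, with 35.9 at eIF3g1.

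The eIF4 group works at the mRNA cap. Of its 13 genes, 3 had an optimal peak, beside 19.7% of all protein-coding genes, and 6 had no pooled peak. The shares of the eIF3 and eIF4 groups with an optimal peak were thus not far above that of all genes. eIF4EHP encodes a cap-binding protein that represses translation in the embryo. It had 3 optimal peaks, of which the strongest (signal 172) was intronic, 9770 bp from the start. The others, with signals of 124 and 107, lay 105 and 306 bp upstream, the second of them 70 bp from the TSS of CG18428. eIF4EHP is 45884 bp long, the longest of the genes with an optimal peak, and a long interval can take in more peaks. At eIF4G2, a gene for an eIF4G scaffold protein that shares its start with CG33111, the peak had a signal of 91.0 and a summit 8 bp downstream. It ranked 7175 in replicate 1 and 1236 in replicate 3. At eIF4A, the RNA helicase gene, the promoter peak had a signal of 86.5 and a summit 56 bp upstream in the pooled list and in each replicate, at rank 5842 in replicate 1 and 1966 in replicate 3. Its second optimal peak, 858 bp upstream with a signal of 84.9, lay 112 bp from the TSS of chic, the profilin gene.

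The main cap-binding gene eIF4E1 had a weaker peak (59.3) 301 bp upstream of a start, and eIF4E6 (56.8), eIF4H1 (45.7) and eIF4H2 (28.0) also had weaker peaks only. The eIF4 genes with no pooled peak were eIF4B, eIF4G1, eIF4E3, eIF4E4, eIF4E5 and eIF4E7. They include 4 of the 6 numbered eIF4E genes. eIF4G1, the main scaffold gene, is the only one of the 52 on chromosome 4. Both eIF4B and eIF4G1 are long, at 15603 and 15419 bp. The 10 genes with no pooled peak had a median length of 1559 bp, those with an optimal peak 1938 bp and those with weaker peaks only 1969 bp.

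Summits at the own promoter lay close to the start. Over the 14 translation factor genes with an optimal summit within 500 bp of an own TSS, the median distance of the strongest such summit was 55 bp, and 11 (78.6%) lay within 100 bp. The median over the ribosomal protein genes was 27 bp, with 49 of 54 (90.7%) within 100 bp, and over all protein-coding genes it was 115 bp, with 858 of 1897 (45.2%) within 100 bp. Of the 22 optimal peaks in the intervals of the translation factor genes, 19 had their summit within 500 bp of the TSS of some protein-coding gene and 3 lay in introns. The 139 weaker peaks were spread otherwise: 38.8% were at promoters, 31.7% in coding exons and 24.5% in introns. For 11 of the 17 genes, the strongest optimal summit was nearest to the gene's own TSS. The other 6 were eIF1, eIF2Bbeta, eIF2Bgamma, eIF2D, eIF3a and eIF4EHP. A head-to-head neighbour within 500 bp was present at 20 of the 52 genes and at 6 of the 17. The share over all protein-coding genes is not given, so these counts cannot be read as a trait of the translation factor genes.

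The replicates were also compared on their own lists, taking from each as many of the highest peaks as the optimal list holds. In replicate 3 alone, 18 of the 52 genes had a summit in the interval, beside 19.5% of all protein-coding genes, and in replicate 1 alone 18, beside 20.1%. Of the 17 genes with an optimal peak, 16 were among the 18 in each replicate. Replicate 3 alone lost eIF2D and added eIF3d1 and eIF5B, and replicate 1 alone lost eIF4G2 and added eEF1delta and eIF2Bdelta. The strongest optimal peaks of all 17 genes were matched in the full lists of both replicates, and those of 14 genes among the highest peaks of both. Over all optimal peaks, 1874 (69.5%) were matched among the highest of both. The 17 are the strongest peak of each gene, while all optimal peaks include those of lower signal. The comparisons of matches and ranks are therefore between unlike sets. The genes whose strongest peak differed in rank by more than 3 times were eEF1alpha1 (3.57 times), eIF4G2 (5.81) and eIF2D (4.44). That is 3 of 17, beside 11.6% of all optimal peaks. The second optimal peaks of eEF1alpha1 (3.70 times) and eIF4A (3.40) also differed by more than 3 times and are not in this count. The median ratio of ranks was 1.81 for the 17 and 1.53 for all optimal peaks, so these strongest peaks were no closer in rank than the whole list. Summits were placed a median of 19 bp apart by the replicates in the optimal peaks of these genes, and 24 bp apart over the whole optimal list. Of 137 distinct weaker peaks, 58 (42.3%) were matched in both replicates, with summits a median of 68 bp apart.

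**Figure D3:**
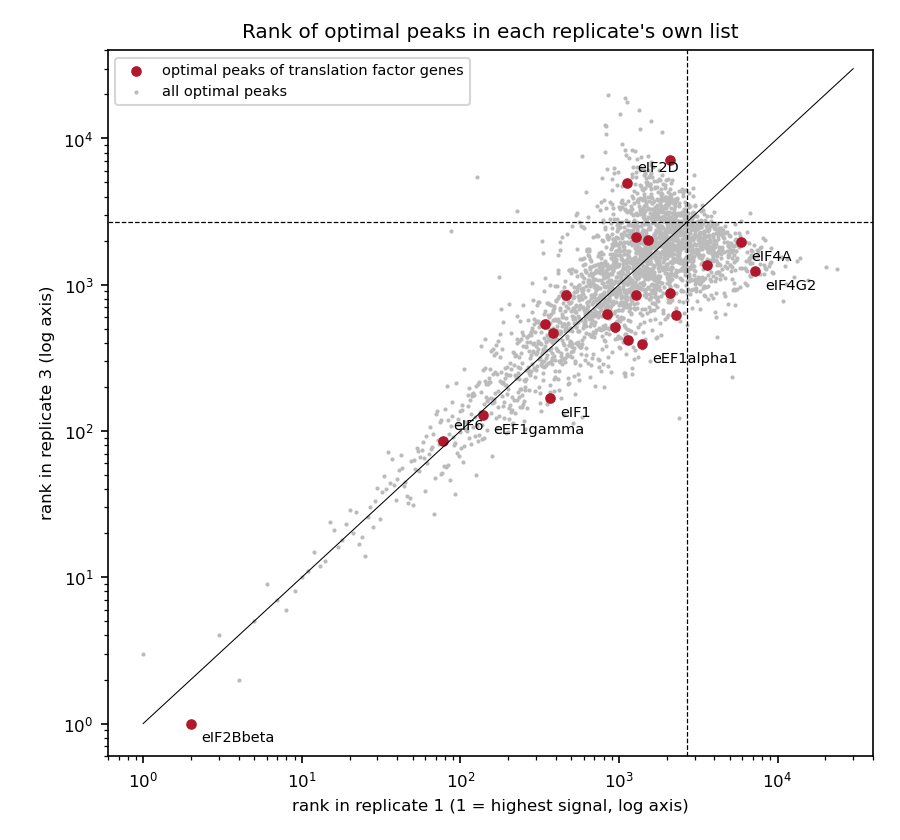
Rank of each optimal peak in the own list of replicate 1 (horizontal) and replicate 3 (vertical), both on log axes with 1 the strongest; red points are the 21 optimal peaks of translation factor genes matched in both replicates and grey points all optimal peaks matched in both. The dashed lines mark rank 2697 and the diagonal equal ranks. eIF6 and eEF1gamma lie near the diagonal and eIF2Bbeta at ranks 2 and 1, while 5 red points lie outside the highest peaks of 1 replicate: the strongest peaks of eIF2D, eIF4A and eIF4G2, the second peak of eIF4A and the weakest of eIF4EHP.

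The promoters were searched for words that the choice of genes had not used. The TCT initiator was taken as the word TCTTTC on the gene's strand, allowing C as the first letter, T as the last letter, or both, with its second letter (C) within 10 bp of an annotated TSS. It was present in 12 of the 52 translation factor genes (23.1%), beside 4.09% of all protein-coding genes and 74 of 87 ribosomal protein genes (85.1%). In 0 of the 12 did the C lie exactly on the annotated start, and it did so in 26 of the 570 protein-coding genes with the word, so the width of the window bears on the count. The 12 were eEF1alpha1, eEF2, eEF1delta, eEF5, eIF1A, eIF3c, eIF3e, eIF3f1, eIF3g1, eIF3i, eIF3m and eIF4A. They include 3 elongation factor genes and 6 eIF3 genes, and 0 eIF2B genes.

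An optimal summit within 500 bp of an own TSS was found for 6 of the 12 translation factor genes with a TCT word (50%) and for 8 of the 40 without (20%). The ribosomal protein genes had it in 49 of 74 with the word (66.2%) and 5 of 13 without (38.5%). All other protein-coding genes had it in 100 of 484 with the word (20.7%) and 1729 of 13322 without (13.0%). Within each gene class the share was higher with the word, and among the translation factor genes it rests on 6 and 8 genes. Both the word and the summit were counted at any annotated TSS, so a gene with more starts had more chances of each. The translation factor genes with word and peak have 2 to 4 annotated starts. Of those with the word and no such peak, eIF1A has 2 and the others 1. Whether the number of starts bears on these shares was not tested. The 6 with word and peak were eEF1alpha1, eEF2, eEF5, eIF3c, eIF3m and eIF4A, with summits 9 to 77 bp from a TSS and signals of 86.5 to 187. The 8 without the word had summits 5 to 348 bp from a TSS and signals of 91.0 to 454. Both ranges overlap, and the medians were 170 with the word and 185 without. eIF3e had the word and no pooled peak.

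The Dref word TATCGATA, searched on both strands from 250 bp before to 50 bp after the outermost start, was in 14 of the 52 promoters (26.9%), beside 9.36% of the promoters of all protein-coding genes. An optimal summit at the own promoter was found for 5 of these 14 (35.7%) and for 9 of the 38 without the word (23.7%). Among the other protein-coding genes, apart from ribosomal protein genes, it was found for 20.8% with the word and 12.5% without. The 14 include eIF2gamma, which has the word 3 times and only weaker peaks, and eIF4B, shown above, which has no pooled peak. The word thus stood in promoters with an optimal peak, with weaker peaks and with none.

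**Figure D4:**
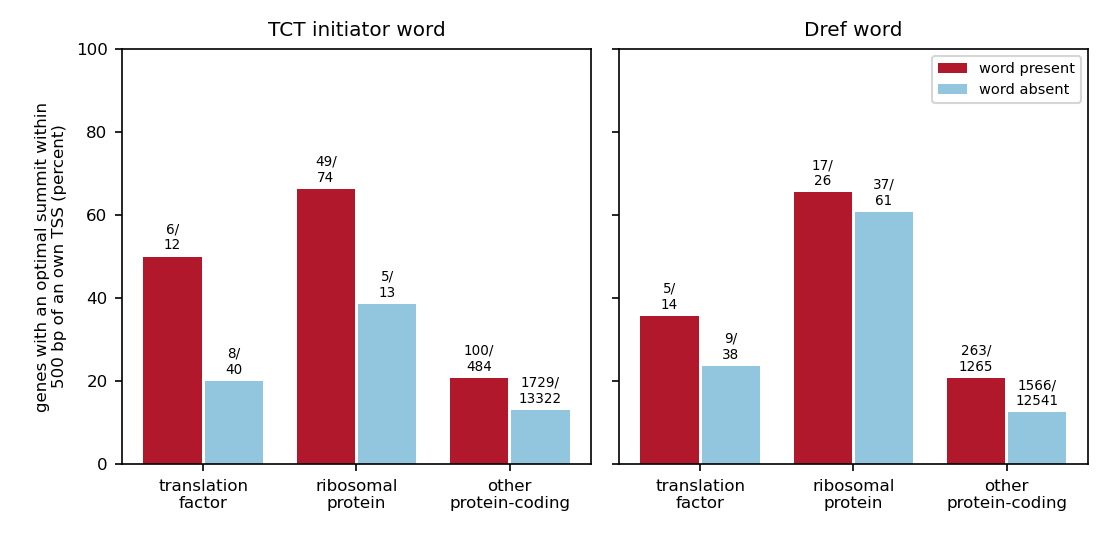
Percent of genes with an optimal summit within 500 bp of an own TSS (vertical axis, from 0) for translation factor, ribosomal protein and other protein-coding genes, with a promoter word present (red) or absent (light blue). The left panel is the TCT initiator word and the right panel the Dref word; numbers above the bars are genes with such a summit over genes in the class, for example 6 of 12 and 8 of 40 for the translation factor genes with and without TCT. The Dref word was searched around the outermost start only, while the TCT word and summits count at any own TSS.

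Around the summits themselves, 100 bp either side, the Dref word was found at 5 of the 17 genes with an optimal peak (29.4%), beside 4.93% of all optimal summits. These were eEF1gamma, eIF1, eIF2A, eIF3a and eIF4A, with the word 29, 56, 31, 26 and 8 bp from the summit. The 17 summits are the strongest per gene and mostly lie at promoters, while all optimal summits include those away from promoters. A share over optimal promoter summits alone is not given, so the summit comparisons are between unlike sets. The M1BP word GGTCACAC was at 2 of the 17 (11.8%), beside 3.11% of all optimal summits: it lay 2 bp from the summit of eIF2A and 21 bp from that of eEF1alpha1. In promoters the M1BP word was in 6 of the 52 (11.5%), beside 7.70% of all, and 0 of these 6 genes had an optimal summit at the own promoter, beside 18.9% of the other protein-coding genes with the word. These promoters were taken at the outermost start, while the M1BP words at the summits of eEF1alpha1 and eIF2A lay at -49 and -56 bp from another own TSS, where both have an optimal summit. The E-box CACGTG, the site of Myc and Max, was at 2 of the 17 summits (11.8%), beside 3.04% of all optimal summits. These were the summits of eEF2 and eIF4A, with the word 92 and 94 bp away, near the edge of the window. In promoters the E-box was in 4 of the 52 (7.69%), beside 4.20% of all. GAGAGAG, a word of the GAGA factor, was at 0 of the 17 summits, beside 5.30% of all optimal summits. It was in 1 of the 52 promoters (1.92%), beside 5.87% of all.

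The words of homeodomain factors were no more frequent at these genes than elsewhere in the optimal list. CAATTA, a reported Repo site, lay near the summit of 1 of the 17 genes (5.88%), eIF2Bbeta, beside 17.4% of all optimal summits. TAATTA, a general homeodomain word, also lay near 1 summit, that of eIF3a, beside 12.1%. All optimal summits again include those away from promoters. In the promoters of the 52 genes, CAATTA was present in 14 (26.9%), beside 25.2% of all promoters, and TAATTA in 14, beside 20.4%. These words were searched on both strands, and CAATTA and TAATTA share all but their first letter. A match is a description of the letters, and no match says only that these letters are not in the window.

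Other genes of translation were read from 3 lists. Of 20 cytoplasmic tRNA synthetase genes, whose enzymes load the amino acids, 7 (35%) had an optimal summit in the interval, beside 19.7% of all genes. At the own promoter, 6 had it, beside 13.6% of all genes. The highest signals were 157 at SerRS, 143 at AlaRS and 135 at beta-PheRS, all below the median of the translation factor genes. The AlaRS summit lay 1061 bp upstream, and AlaRS had no optimal summit at its own promoter. Of 8 matched mitochondrial factor genes, 1 (12.5%) had an optimal summit, beside 19.7% of all genes. It was mEFTu1, with a signal of 85.6 and the summit 549 bp upstream. Of 20 genes listed as translation regulators, 10 (50%) had an optimal summit, beside 19.7% of all genes. At the own promoter, 6 had it, beside 13.6% of all genes. Both counts include EloA (signal 164), which encodes a subunit of a transcription factor. The 10 also include cup, whose strongest summit lay 9832 bp downstream of a TSS. Lk6, the kinase of eIF4E, had a signal of 1163 and rank 6, with the strongest summit 969 bp upstream of a TSS. PPP1R15, a phosphatase subunit that acts on eIF2alpha, had a signal of 742 with the summit 1281 bp upstream, and the nearest other start there was that of Sox14. pAbp, the poly(A)-binding protein gene, had a signal of 231. Thor, the eIF4E-binding repressor, had a signal of 200 with the summit 2 bp upstream of its start, whereas eIF4E1 itself had weaker peaks only.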

How the data were processed

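Peak lists on dm6 from ChIP-seq of 2 replicates in 1 group were used; dm3 lists were not used here. Per the labels and the deposited text files, the authors made a list per replicate, a pooled list and an optimal list after IDR thresholding; the aligner, peak caller and threshold were not given in the sources used here. The deposited signal value of each peak ranked peaks within a list, the deposited summit offset in bp gave its position, and the deposited −log10 q-value was not used for ranking. Depth is unknown, since the lists hold no read counts. Summits were assigned to protein-coding genes of Ensembl release 115 from 2000 bp upstream to the gene's end, and to promoters within 500 bp of any annotated TSS. An optimal peak was matched in a replicate when its summit lay inside a peak of that replicate. Scripts ran in Python 3.11.15 with pandas 2.3.3, numpy 2.4.6 and matplotlib 3.10.9, and the assignment was tested on simulated data.

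The members, roles, words and lists were chosen with earlier results of these data known. Named with values were up to 14 members of highest optimal signal, the 3 lowest, the 5 strongest without an optimal peak, those with a strongest summit over 500 bp from an own TSS, with 2 or more optimal peaks or with ranks over 3 times apart, and the 3 highest genes of each list; other members were named after their values were seen. The promoter sequences shown are from members with a Dref word near the start, a choice made after seeing the data, and replace the planned summit windows. The regulator list was kept as written, although EloA is a subunit of a transcription factor; Tor was matched as mTor, and mEFG2 and mtRF1A were not matched. Alternatives were the stronger 1348 optimal peaks, each replicate alone, other gene intervals, promoter sizes, TSS sets, overlap rules and word windows.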

Additional observations from a re-analysis of the deposited data

How the results depend on the processing

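Of 61 alternative values of the comparisons, 47 stayed within a tolerance and 14 did not. The tolerance was 1.5 times for a count or share, and the SD between the single-replicate values for the median signal (23.8) and the median distance (84.9 bp). It is wide: the median distance of 119 bp from the outermost starts alone, against 60 bp, falls inside it. The number of translation factor genes with an optimal summit, 17, was 12 with the stronger 1348 optimal peaks (all genes 11.3%), 18 from replicate 3 alone (19.5%) and from replicate 1 alone (20.1%), 15 within 1 kb of a TSS (15.7%), 14 from 500 bp upstream (16.6%), 17 by any overlap (20.7%) and 12 when each summit went only to the gene of the nearest TSS. The number with a summit at the own promoter, 14, ran from 10 to 15. For the nearest-TSS count and for this range, the shares of all genes are not given. These values therefore cannot be set beside all genes. With the stronger 1348 peaks, the tRNA synthetase count was 4, the mitochondrial count 0, the regulator count 6, and the median signal was 202. From 1 replicate alone, the mitochondrial count was 0 to 2, the median signal 69.5 to 103 on that replicate's own scale, and the median distance of the strongest summit 79 to 199 bp, against 60 bp. The mitochondrial count was 0 from 500 bp upstream, and the regulator count 6 by nearest TSS. The TCT count of 12 was 6 within 5 bp (2.13% of all genes) and 19 within 25 bp of a TSS (9.04%). The cause of these shifts was not tested. The strongest optimal peaks of eIF4A and eIF4G2 fell outside the highest peaks of replicate 1, at ranks 5842 and 7175. That of eIF2D fell outside those of replicate 3, at rank 4971. The second optimal peak of eIF4A ranked 2091 in replicate 1 and 7112 in replicate 3. No paired analysis was possible because there is 1 group.

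With 2 replicates of 1 group and no read counts, neither the depth behind a weaker or missing peak nor a difference between conditions can be given, and no untagged or input embryos were analysed here.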
